A study of Homo sapiens with 4 samples.

Results

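The small nucleolar RNA (snoRNA) host genes examined here were the genes with the symbol SNHG and a number, together with GAS5, ZFAS1 and TAF1D. The rule uses names only and found 31 genes among the 60675 genes of the count files. Of these, 27 passed the filter on low counts and were tested among 17600 genes in all. RNA was sequenced from LNCaP cells, an established and androgen-responsive human prostate cancer line, kept in hormone-depleted medium and treated for 72 h. All cultures received the synthetic androgen R1881 at 1 nM, and they differed in receiving vehicle or the KDM5 inhibitor CPI-455 at 50 µM, with 2 libraries in each group. CPI-455 inhibits the KDM5 demethylases, which remove methyl groups from lysine 4 of histone H3, and the comparison asks how the transcriptome of androgen-treated cells differed with the inhibitor. The solvent of CPI-455 was DMSO, at a concentration that differs between the sample labels and the methods.

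A snoRNA host gene is transcribed by RNA polymerase II as a spliced RNA whose introns carry snoRNAs, which are released by trimming of the excised introns. C/D box snoRNAs guide the methylation of riboses and H/ACA box snoRNAs the formation of pseudouridine, mostly in ribosomal RNA, while the related scaRNAs act on spliceosomal RNAs in Cajal bodies. Many hosts encode no protein or only short reading frames, and their spliced RNAs are often short-lived and removed by nonsense-mediated decay (NMD) once ribosomes engage them. GAS5 is the classic example, was named for its accumulation in growth-arrested cells, and its RNA can bind the glucocorticoid receptor. Ribosomal protein genes and many hosts also share a terminal oligopyrimidine tract, a C followed by further pyrimidines at the start of the RNA. TAF1D is the only protein-coding member and encodes a subunit of SL1, the factor that brings RNA polymerase I to ribosomal DNA.

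The sequences of 4 of these guide RNAs are printed to show what the hosts carry, with SNORD104 and SNORD6 chosen because their hosts had the largest fold changes before correction for length and GC content. The first 3 were read at the coordinates of the deposited annotation on GRCh38 and do not touch an exon of the host, while SNORD44 was read at RefSeq coordinates on the same build and lies whole in annotated exon bases of GAS5. Capitals mark the letters TGATGA of box C, CTGA of box D, or the ACA near the end of an H/ACA RNA. SNORD104 lies at chr17:64146083-64146152 on the forward strand in an intron of SNHG25. SNORD6 lies at chr11:93731502-93731574 on the reverse strand in an intron of TAF1D. SNORA73B, the H/ACA RNA known as U17 that takes part in processing of ribosomal RNA precursors, lies at chr1:28508559-28508762 on the forward strand in an intron of SNHG3. SNORD44 lies at chr1:173865968-173866028 on the reverse strand.
SNORD104: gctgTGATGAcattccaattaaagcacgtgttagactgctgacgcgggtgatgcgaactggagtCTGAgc
SNORD6: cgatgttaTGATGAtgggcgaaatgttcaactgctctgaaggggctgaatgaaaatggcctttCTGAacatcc
SNORA73B: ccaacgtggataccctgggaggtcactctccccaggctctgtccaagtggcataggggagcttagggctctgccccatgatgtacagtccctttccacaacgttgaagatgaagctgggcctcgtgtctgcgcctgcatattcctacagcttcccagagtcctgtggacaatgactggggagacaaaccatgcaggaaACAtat
SNORD44: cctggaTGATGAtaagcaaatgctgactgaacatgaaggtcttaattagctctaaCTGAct

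The libraries held 19623553 and 20690819 counted fragments under vehicle against 9522920 and 5401588 under CPI-455, and 3 counts corresponded to 0.145 to 0.153 CPM (counts scaled to library size by edgeR) under vehicle against 0.315 to 0.555 CPM under CPI-455. Low genes were therefore measured less precisely with CPI-455. All 10 luminal prostate markers examined were counted in every library, with a summed level of 952 to 1038 CPM under vehicle against 399 to 459 CPM under CPI-455, and 6 of them were called lower. The defining basal marker KRT5 was at 0 in all 4 libraries, the 3 basal markers summed to at most 1.24 CPM and the 3 leukocyte markers to at most 0.900 CPM. The 4 stroma markers summed to 4.30 to 5.21 CPM under vehicle against 10.2 to 10.7 CPM under CPI-455, mostly from COL1A1, which was called higher. The part of these markers in the results below was not tested. As the RNA comes from whole cultures, fewer cells of a kind and less RNA per cell cannot be told apart. The replicates are biological replicates by the methods, but no label says that they were separate cultures, so the p-values measure the spread between these libraries.

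Most of the host genes were higher with CPI-455. A gene was called when edgeR's quasi-likelihood test gave an FDR under 0.05 (Benjamini-Hochberg adjustment over all genes tested) and the change reached 2-fold. By this definition 15 of the 27 tested members were called higher, against 21.0% of all genes tested, and 2 were called lower, against 21.3% of all genes. Their median log2 fold change (CPI-455 over vehicle) was 1.33, with an interquartile range of 0.28 to 2.02, while the median of all genes was -0.04. With the trend of counts over GC content and exon length removed, the median of the members was 0.96 and that of all genes 0.05. Without the minimum fold change, 19 members passed the FDR as higher and 2 as lower, and 6 did not pass it. In 20 members both CPI-455 libraries lay above both vehicle libraries (39.1% of all genes) and in 2 they lay below them (42.8% of all genes). Long non-coding RNA (lncRNA) genes as a class were also more often higher, with 38.5% of 2271 called higher and 10.3% called lower. Of the 26 tested members of that class, 14 were called higher and 2 lower. The lncRNA class had a median log2 fold change of 0.84, and the lncRNA members one of 1.21.

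**Figure D1:**
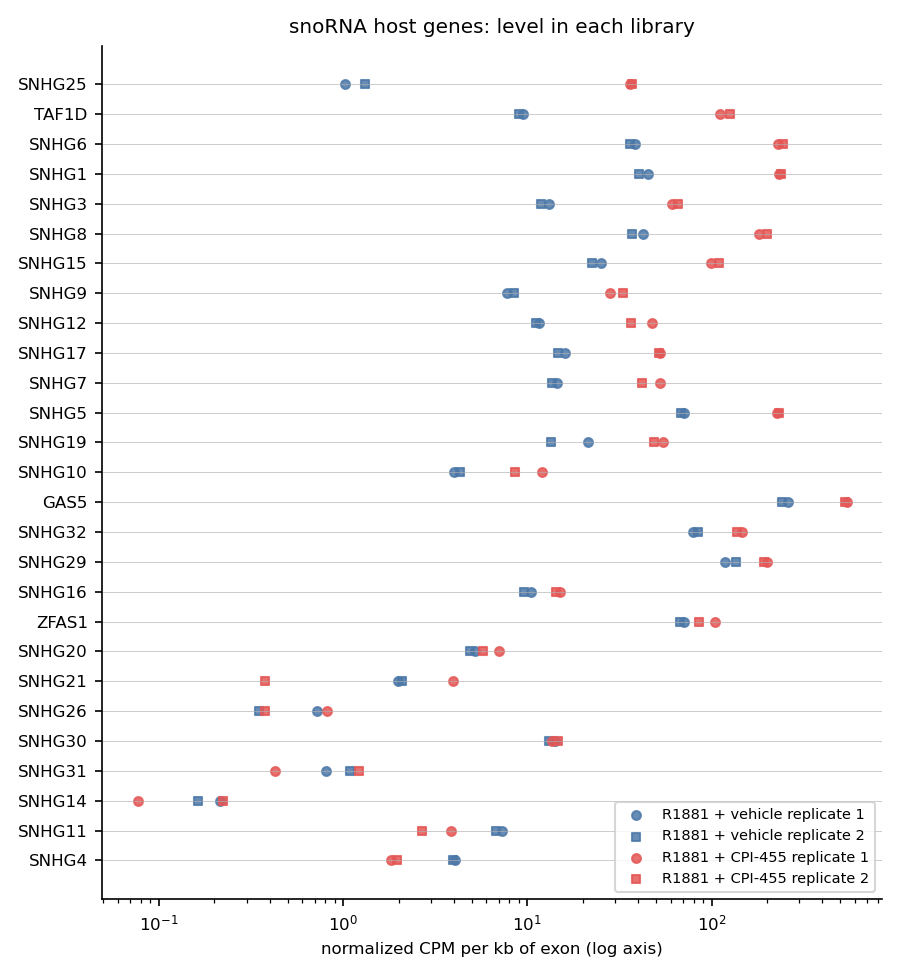
Level of each tested host gene in each library, as normalized CPM per kilobase of exon on a log axis, ordered by fold change from SNHG25 at the top to SNHG4 at the bottom. Points stand for single libraries. The CPI-455 libraries lie to the right of both vehicle libraries in 20 of the 27 genes, and GAS5 had the highest level per kilobase of these genes in each library.

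The members together held 0.290% and 0.276% of all counted fragments under vehicle against 0.703% and 0.707% under CPI-455. GAS5 supplied 34.9% and 33.5% of the members' summed CPM under vehicle against 26.1% and 25.3% under CPI-455. The share of TAF1D was 2.97% and 2.92% under vehicle against 12.4% and 14.0% under CPI-455, and with CPI-455 only GAS5 stood above it in CPM. Per kilobase of exon, GAS5 ranked 1 of 27 in every library. SNHG29 and SNHG32 ranked 2 and 3 in both vehicle libraries, and with CPI-455 SNHG29 ranked 5 and 6 and SNHG32 ranked 7 in both. SNHG1 and SNHG6 moved up to ranks 2 and 3 in the CPI-455 libraries, in opposite order in the 2 replicates, so their order was not larger than the spread between replicates.

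**Figure D2:**
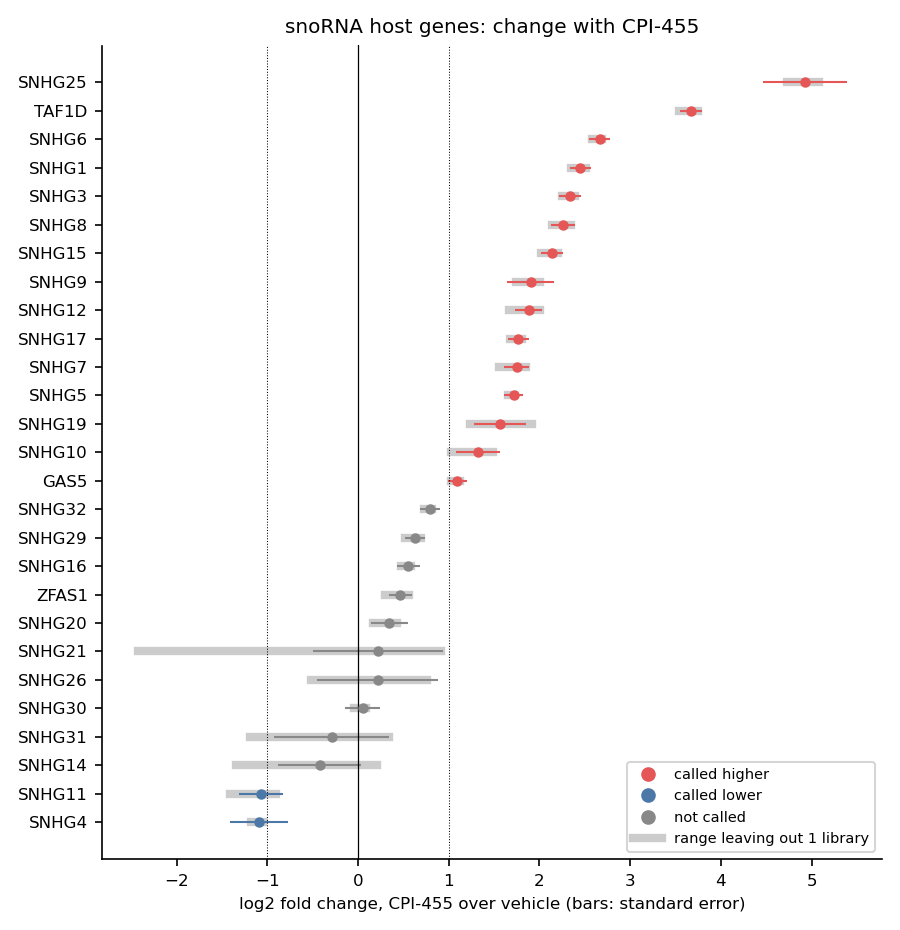
Log2 fold change (CPI-455 over vehicle) of each tested host gene, with bars for the standard error, gray bands for the range when each library is left out in turn, and dotted lines at a 2-fold change. The 15 genes called higher run from SNHG25 at 4.93 to GAS5 at 1.10, and the band of SNHG21 reaches from -2.43 to 0.91.

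SNHG25, the host of SNORD104 and SNORA50C, had the largest fold change of the members before correction for length and GC content. Its counts were 6 and 8 under vehicle against 89 and 52 under CPI-455, which is 0.284 and 0.366 CPM against 10.0 and 10.3 CPM. Both vehicle counts lay below the filter's minimum of 10. The gene was thus tested only through its CPI-455 libraries, where it is high, and its call and rank are not independent of that. The gene (ENSG00000266402) spans chr17:64145970-64146476 on the forward strand, with only 278 exon bases in 2 blocks. Its log2 fold change was 4.93 (standard error, SE, 0.46, FDR = 1.76e-05 by edgeR's quasi-likelihood test), a 30.4-fold rise, and leaving out single libraries gave 4.73 to 5.08. Removal of the trend of counts over GC content and exon length lowered it to 2.63, still called but below TAF1D at 4.26 and SNHG1 at 2.83. Of its exon bases, 48.6% are shared with other listed genes, and fragments on shared bases were not counted.

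TAF1D rose from 80.0 and 76.2 CPM under vehicle to 932 and 1061 CPM under CPI-455, a change second to that of SNHG25, and the largest of the members with the trend on length and GC content removed (4.26). Its counts were 1690 and 1665 under vehicle against 8289 and 5350 under CPI-455, in libraries of smaller depth. The log2 fold change was 3.67 (SE 0.12, FDR = 2.77e-07 by edgeR's quasi-likelihood test), a 12.7-fold rise. TAF1D (ENSG00000166012) spans chr11:93729948-93784391 on the reverse strand with 8420 exon bases in 7 blocks, which is 15.5% of the span. RefSeq places 8 snoRNAs in this span, 6 of them of the H/ACA kind, and 7 of the 8 lie whole in exon blocks of the deposited annotation. Fragments of spliced and unspliced RNA within these blocks cannot be told apart in the counts. Its exons also share bases with CEP295, C11orf54 and MED17 on the other strand, and 17.3% of its exon bases are shared in all.

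Of the 11 tested hosts of C/D box snoRNAs alone, 4 were called higher, against 38.5% of all lncRNA genes. SNHG6, SNHG1 and SNHG5 are given first. SNHG1, whose introns carry a run of C/D box guides between SNORD22 and SNORD31, had 171 and 152 CPM under vehicle against 868 and 899 CPM under CPI-455. The inhibitor libraries lay well apart from the vehicle libraries, and the log2 fold change was 2.45 (SE 0.11, FDR = 6.49e-07). SNHG6, the host of SNORD87, had 48.2 and 45.1 CPM under vehicle against 286 and 305 CPM under CPI-455, and its log2 fold change was 2.66 (SE 0.12, FDR = 5.84e-07). Its exons share 365 bases with MCMDC2 on the opposite strand. SNHG5, the host of SNORD50A and SNORD50B, had 197 and 191 CPM under vehicle against 630 and 646 CPM under CPI-455, and its log2 fold change was 1.72 (SE 0.10, FDR = 1.84e-06). The 3 genes changed little with a library left out, from 1.65 to 1.72 for SNHG5 and from 2.35 to 2.51 for SNHG1. FDR values here and below come from the same quasi-likelihood test of edgeR with Benjamini-Hochberg adjustment.

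GAS5 was the most abundant member, was called higher, and had the smallest log2 fold change of the 15. It had 941 and 875 CPM under vehicle against 1963 and 1919 CPM under CPI-455, so the groups did not overlap. The log2 fold change was 1.10 (SE 0.10, FDR = 1.64e-05), just past the 2-fold limit, and 1.02 to 1.13 with each library left out. It was 0.91 when libraries were scaled by their totals alone and 0.94 without the filter on low counts, and then it was not called. GAS5 (ENSG00000234741) spans chr1:173863900-173868882 on the reverse strand with 3631 exon bases in 5 blocks. RefSeq places 11 snoRNAs in it, 10 of the C/D kind, and 9 of the 11 lie whole in these exon blocks without being listed as genes in the files. They take up 676 bases, or 18.6% of its exon bases, so fragments from them were counted for GAS5, and the part of the host's own RNA in the rise was not tested.

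The hosts of H/ACA box snoRNAs alone gave 6 of 9 called higher and 2 called lower, against 38.5% and 10.3% of all lncRNA genes. SNHG3, the host of SNORA73A and SNORA73B, had 53.9 and 48.7 CPM under vehicle against 251 and 270 CPM under CPI-455, a log2 fold change of 2.34 (SE 0.12, FDR = 8.98e-07). SNHG8, the host of SNORA24, had 39.2 and 34.0 CPM under vehicle against 166 and 185 CPM under CPI-455, a log2 fold change of 2.26 (SE 0.13, FDR = 1.51e-06). SNHG15, the host of SNORA9, had 91.8 and 81.7 CPM under vehicle against 361 and 402 CPM under CPI-455, a log2 fold change of 2.14 (SE 0.12, FDR = 1.33e-06). In these 3 genes both replicates of a group lay close together and the groups lay far apart. SNHG17, which carries SNORA71A to SNORA71D, had 67.2 and 61.4 CPM under vehicle against 220 and 217 CPM under CPI-455 (log2 fold change 1.76). SNORA71E of the same family lies in SNHG11. SNHG7, which carries SNORA17A and SNORA17B, had 63.3 and 59.2 CPM under vehicle against 229 and 182 CPM under CPI-455 (log2 fold change 1.75). SNHG3 lies beside RCC1, which gives the cell its nuclear Ran-GTP gradient, and shares 242 exon bases with it, and SNHG7 shares 1094 exon bases with DIPK1B. With the trend on length and GC content removed, SNHG8 stood at 1.45 and the other 4 between 1.67 and 2.62.

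SNHG9, a host of SNORA78 with a single exon block and 551 exon bases, had 4.26 and 4.67 CPM under vehicle against 15.4 and 18.2 CPM under CPI-455. Its log2 fold change of 1.90 (SE 0.26, FDR = 1.81e-04) fell to 0.37 with the trend on length and GC content removed and was then not called (FDR = 0.290). SNHG19, the host of SNORD60 with 342 exon bases, behaved alike in this respect. It had 7.34 and 4.58 CPM under vehicle against 18.6 and 16.7 CPM under CPI-455, a log2 fold change of 1.57 (SE 0.29, FDR = 0.00112). With the trend removed the value was -0.43 (FDR = 0.172). GC content of the exons was 66.4% in SNHG9 and 56.1% in SNHG19, against 42.1% in SNHG1, and the calls of both short genes and the direction of SNHG19 depended on how length and GC content were handled.

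SNHG12, which carries SNORD99 and 3 H/ACA snoRNAs, had 39.3 and 37.8 CPM under vehicle against 160 and 123 CPM under CPI-455, a log2 fold change of 1.88 (SE 0.15, FDR = 6.86e-06). SNHG10, the host of SCARNA13, had 7.76 and 8.38 CPM under vehicle against 23.4 and 16.7 CPM under CPI-455, a log2 fold change of 1.33 (SE 0.24, FDR = 0.00118). SNHG10 shares 391 exon bases with GLRX5, a mitochondrial iron-sulfur cluster protein gene on the opposite strand. Both hosts were higher in each inhibitor library than in either vehicle library, with replicate 1 above replicate 2 in the CPI-455 group.

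ZFAS1 and 3 further C/D box hosts passed the FDR as higher but changed by less than 2-fold. ZFAS1, which carries SNORD12 and its relatives at chr20:49278178-49295738, had 159 and 151 CPM under vehicle against 235 and 192 CPM under CPI-455. The log2 fold change was 0.47 (SE 0.13, FDR = 0.00998) and 0.29 to 0.56 with each library left out. SNHG29, the host of SNORD49A, SNORD49B and SNORD65, had 446 and 507 CPM under vehicle against 749 and 724 CPM under CPI-455 (log2 fold change 0.63, FDR = 8.71e-04). SNHG32, the host of SNORD48 and SNORD52, had 143 and 152 CPM under vehicle against 264 and 248 CPM under CPI-455 (log2 fold change 0.79, FDR = 1.98e-04). SNHG16, the host of the SNORD1 group, had 56.0 and 51.6 CPM under vehicle against 80.6 and 77.1 CPM under CPI-455 (log2 fold change 0.55, FDR = 0.00432). The groups did not overlap in any of the 4 genes. Of the exon bases of ZFAS1, 32.0% are shared with other genes, among them 249 bases with ZNFX1, and of those of SNHG16 33.4% are shared, 1639 bases with ST6GALNAC2.

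In 6 tested members the FDR was not passed. SNHG20, the host of SCARNA16, had 16.2 and 15.2 CPM under vehicle against 21.8 and 17.8 CPM under CPI-455 (log2 fold change 0.34, FDR = 0.166). SNHG30 had 18.3 and 17.03 CPM under vehicle against 17.7 and 19.0 CPM under CPI-455 (log2 fold change 0.05). SNHG14, the long transcript of the Prader-Willi region that carries the SNORD115 and SNORD116 clusters, had 7.86 and 5.998 CPM under vehicle against 2.81 and 8.13 CPM under CPI-455. Its CPI-455 replicates stood on either side of the vehicle libraries, and its log2 fold change of -0.42 became -1.34, called lower, without replicate 2 of CPI-455. SNHG21, with 2.08 and 2.20 CPM with vehicle, had 4.16 and 0.397 CPM with CPI-455, and 72.9% of its exon bases are shared with other genes. SNHG26 had 1.89 and 0.916 CPM against 2.14 and 0.991 CPM, and SNHG31 had 1.70 and 2.29 CPM against 0.900 and 2.58 CPM. In SNHG20 alone of these 6 did the groups not overlap, and the direction of SNHG14, SNHG21, SNHG26, SNHG30 and SNHG31 turned when a library was left out.

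SNHG11 and SNHG4 were the 2 members called lower, and both carry H/ACA snoRNAs. SNHG11 had 20.6 and 19.0 CPM under vehicle against 10.9 and 7.53 CPM under CPI-455. Its log2 fold change was -1.07 (SE 0.24, FDR = 0.00370), and it was -0.90 and not called either with upper-quartile scaling or without replicate 2 of CPI-455. SNHG4 had 7.76 and 7.60 CPM under vehicle against 3.49 and 3.77 CPM under CPI-455, a log2 fold change of -1.09 (SE 0.32, FDR = 0.0140). It was not called with DESeq2 (-1.07, FDR = 0.0674), with upper-quartile scaling (-0.91), or without either vehicle library (-1.09 and -1.12). SNHG4 shares 555 exon bases with MATR3, a nuclear matrix protein gene, and 28.8% of its exon bases are shared in all.

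The other 4 members were not tested because of low counts. SNHG18 had no count in any library, which allows a level of up to 0.153 and 0.145 CPM under vehicle against 0.315 and 0.555 CPM under CPI-455 at 3 counts. SNHG28 had 1 and 1 counts under vehicle against 0 and 0 under CPI-455, and SNHG27 had 0 and 0 under vehicle against 5 and 0 under CPI-455. SNHG22 had 5 and 6 counts under vehicle against 1 and 5 under CPI-455. A difference in these 4 genes was not detectable at this depth.

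By the kind of RNA they carry in RefSeq, the 11 tested hosts of C/D box snoRNAs alone gave 4 called higher and none lower, with a median log2 fold change of 0.63. The 9 hosts of H/ACA box snoRNAs alone gave 6 higher and 2 lower, with a median of 1.76. All 4 hosts of both kinds, GAS5, SNHG12, SNHG25 and TAF1D, were called higher, with a median of 2.78, and 1 of the 3 scaRNA hosts was. Of all genes tested, 21.0% were called higher and 21.3% lower, and of lncRNA genes 38.5% and 10.3%. The 4 of 11 hosts of C/D box snoRNAs alone lie near the share of lncRNA genes called higher. The groups of hosts hold few genes and differences between them were not tested.

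The hosts also differ in how much of their span is annotated as exon, which ranged from 1.38% in SNHG31 to 100% in SNHG9. Across the 27 tested members the exon share and the log2 fold change had a Pearson correlation of 0.37 and a Spearman correlation of 0.47, a description over genes measured in the same 4 libraries. Of 12 members with exons over at least 60% of the span, 10 were called higher and 1 lower, with a median log2 fold change of 1.82. Of 15 members below that limit, which was chosen after the values were seen, 5 were called higher and 1 lower, with a median of 0.47. The 5 were SNHG25, TAF1D, SNHG6, SNHG17 and SNHG5. Of the 10 called higher at the larger exon shares, SNHG9 and SNHG19 were not called with the trend on length and GC content removed (0.37 and -0.43). SNHG19, at 60.9%, lies just over the limit. Of all genes tested, 21.0% were called higher and 21.3% lower, and of lncRNA genes 38.5% and 10.3%. Annotated exons covered most of the span in SNHG1 (95.6%), SNHG15 (92.6%), SNHG3 (83.2%) and SNHG8 (82.8%). Counts per gene do not separate spliced from unspliced RNA, and their part in these values was not tested.

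**Figure D3:**
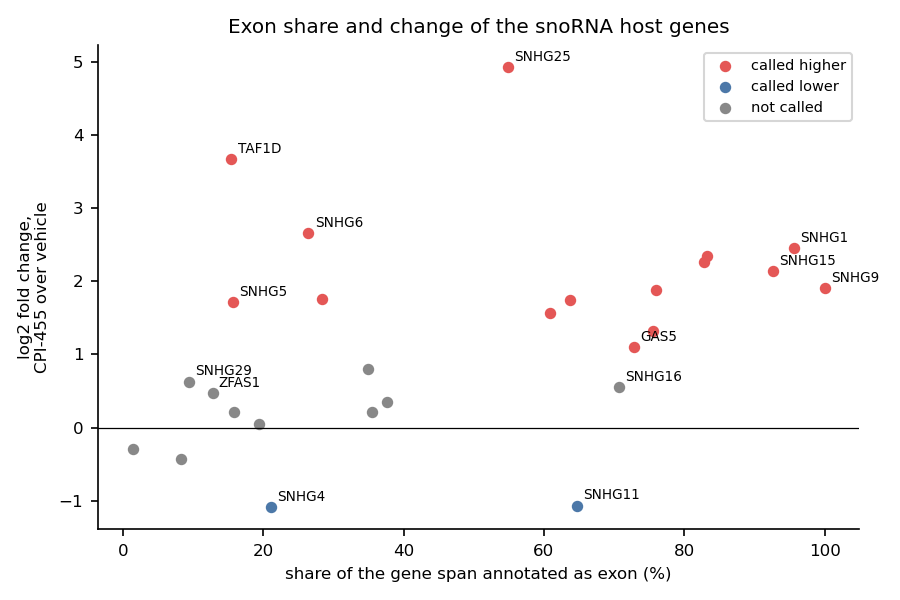
Log2 fold change (CPI-455 over vehicle) of the 27 tested host genes against the share of the gene span annotated as exon, in percent, with points colored by call. SNHG1, SNHG15 and SNHG9 lie at the upper right, while TAF1D, SNHG6 and SNHG5 are high at exon shares under 30%. With the trend on length and GC content removed, SNHG9 stood at 0.37 and was not called.

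The snoRNA genes themselves were counted mainly where they lie outside the host's exons. The files list 145 snoRNA and scaRNA genes inside the members, 84 of them in SNHG14, and 21 had a count in any library. None of the 43 that lie whole inside host exons had a count, as fragments on bases of several genes were not counted. A count was found for 20 of the 97 without a base on a host exon and 1 of the 5 partly on host exons. Some of the 97 share bases with a gene other than the host, as SCARNA15 (100%) and SNORD60 (96.4%) do, and these had no count. Of the 9 that were tested, 7 were called higher and none lower, against 21.0% and 21.3% of all genes tested. The filter scales its minimum of 10 counts to library size and asks for it in 2 libraries. Both vehicle libraries of SNORD104, SNORD6 and SNORD99 fell below it, as did vehicle replicate 2 of SNORA71A in SNHG17. These snoRNAs passed the filter only with their CPI-455 libraries, where they are high. Their calls, and so the share called higher, are not independent of that. SNORA73B in SNHG3 had 19 and 17 counts under vehicle against 263 and 109 under CPI-455, a log2 fold change of 4.93 (SE 0.31, FDR = 2.205e-06). SCARNA13 in SNHG10 had 16 and 19 counts against 123 and 67, a log2 fold change of 4.04. SNORD104 in SNHG25 had 6 and 3 counts against 60 and 56, a log2 fold change of 5.33, and SNORD6 in TAF1D had 4 and 1 counts against 51 and 42, one of 5.80. The value of SNORD6 rests on 5 vehicle counts in all and ran from 5.11 without vehicle replicate 2 to 6.94 without vehicle replicate 1. SNORD99 in SNHG12 had 8 and 14 counts against 39 and 41, a log2 fold change of 3.57. SNORA71C in SNHG17 had 21 and 17 counts against 69 and 18, a log2 fold change of 2.70, which was 1.98 without CPI-455 replicate 1.

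In CPM both CPI-455 libraries of these 6 snoRNAs lay above both vehicle libraries, as in their hosts. The 6 were chosen by mean CPM over both groups, which favors snoRNAs that are high with CPI-455. Of the bases of SCARNA13, 46.2% are shared with a gene other than its host. The log2 fold changes of these snoRNAs were larger than those of their hosts, 4.93 against 2.34 in SNHG3 and 5.80 against 3.67 in TAF1D, and the difference within a pair was not tested. With the trend on length and GC content removed, 4 of the 9 were called higher and 1 lower. The snoRNA value was then below that of the host for SNORD6 (3.004 against 4.26 in TAF1D), SNORA73B (2.55 against 2.62 in SNHG3) and SNORD104 (2.31 against 2.63 in SNHG25). It was above it for SCARNA13 (2.08 against 1.15 in SNHG10), and all 4 were still called. SNORD99 at 0.61 (FDR = 0.380) against 1.98 in SNHG12 and SNORA71C at -0.06 (FDR = 0.931) against 1.87 in SNHG17 were then not called. Chosen after its values were seen, SNORA71A in SNHG17 was the other one called, with 19 and 14 counts against 65 and 20, and stood at 0.25 with the trend removed (FDR = 0.691). The 2 that were not called, likewise chosen afterwards, were SNORA71B in SNHG17, with 54 and 38 counts against 17 and 2, and SNORA60 in SNHG11, with 7 and 15 counts against 17 and 0. SNORA71B had the highest mean vehicle level of the 9 tested (2.15 CPM). Its log2 fold change of -0.76 was opposite in sign to the 1.76 of SNHG17, and the 1.07 of SNORA60 to the -1.07 of SNHG11. In both snoRNAs the groups overlapped. Such short genes yield few fragments in libraries of longer RNA, and mature snoRNAs and unspliced host RNA cannot be told apart in these counts.

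The start of the RNA was examined for a terminal oligopyrimidine tract, since such starts are a known feature of the family. Windows of 250 bases before and 50 bases after the start were taken from RefSeq (GRCh38.p14) for 27 members and searched, on the gene's own strand, for a C at the start base followed by at least 4 letters that are C or T. Of these, 8 had the tract (29.6%), against 1429 of all 35116 windows (4.07%) and 43 of 64 windows of ribosomal protein genes (67.2%). SNHG6, SNHG9, SNHG15 and SNHG25 were without a window. Printed are 6 windows with the tract, with 30 bases on either side of the start and the tract in capitals, and SNHG1 and SNHG7 are added as genes called higher whose start runs of 3 and 4 pyrimidines fell short of the limit. They lie at chr1:28581844-28581903 (SNHG12, reverse strand), chr6:85678704-85678763 (SNHG5, reverse), chr16:2155329-2155388 (SNHG19, reverse), chr6:31834886-31834945 (SNHG32, forward), chr20:49278612-49278671 (ZFAS1, forward), chr5:139274071-139274130 (SNHG4, forward), chr11:62855856-62855915 (SNHG1, reverse) and chr9:136728155-136728214 (SNHG7, reverse).
SNHG12: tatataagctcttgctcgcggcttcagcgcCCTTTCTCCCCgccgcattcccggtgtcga
SNHG5: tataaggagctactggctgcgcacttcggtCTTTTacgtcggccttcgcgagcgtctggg
SNHG19: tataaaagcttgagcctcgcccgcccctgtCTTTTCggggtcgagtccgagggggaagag
SNHG32: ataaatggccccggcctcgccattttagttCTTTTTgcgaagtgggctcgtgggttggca
ZFAS1: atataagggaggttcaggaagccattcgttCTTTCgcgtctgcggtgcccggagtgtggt
SNHG4: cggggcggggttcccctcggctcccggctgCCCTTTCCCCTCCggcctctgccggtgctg
SNHG1: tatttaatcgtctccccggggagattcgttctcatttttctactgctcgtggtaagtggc
SNHG7: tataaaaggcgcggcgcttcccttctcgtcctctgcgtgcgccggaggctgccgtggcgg

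The tract was found in members of every outcome. It stood at the start of 4 of 11 members called higher (SNHG12, SNHG5, SNHG19 and TAF1D), 2 of 10 not called (SNHG32 and ZFAS1) and 1 of 2 called lower (SNHG4), and at that of SNHG18, which was not tested. A window without the tract says only that these letters are not at the RefSeq start base. RefSeq's start lay more than 100 bases from the start in the files for 10 of the 27 members, for example 163 bases in GAS5, 1110 bases in SNHG12 and 42896 bases in TAF1D.

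Several hosts start close to a protein-coding gene on the other strand. None of those neighbors was called, against 42.4% of all genes called in either direction. Of 9 genes that start within 1000 bases of a member in the deposited annotation, 8 were tested. At an unadjusted p under 0.05, 1 was higher and 3 were lower in edgeR's quasi-likelihood test, and DESeq2 called none either. SLC3A2, which encodes the heavy chain of amino acid transporters and starts 188 bases from SNHG1, had 559 and 508 CPM under vehicle against 368 and 370 CPM under CPI-455. Its log2 fold change of -0.53 (SE 0.11, FDR = 0.00195) was opposite in sign to the 2.45 of SNHG1. ZBTB37, a zinc finger protein gene whose start lies 800 bases from that of GAS5, had 45.1 and 49.5 CPM under vehicle against 21.3 and 29.3 CPM under CPI-455, a log2 fold change of -0.92 (SE 0.18, FDR = 0.00186). RPS2, a protein of the small ribosomal subunit and itself a snoRNA host, starts 99 bases from SNHG9 and had a log2 fold change of 0.39 (FDR = 0.00884).

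MED17, a Mediator subunit gene, had a log2 fold change of 0.39 (SE 0.17, FDR = 0.0783) against 3.67 for TAF1D, although their starts lie 164 bases apart only in the deposited annotation, as given above. The others were TRAF7 beside SNHG19 (0.08), ZNFX1 beside ZFAS1 (0.02), ACAA2 beside the untested SNHG22 (-0.26) and BARD1 beside SNHG31 (-0.91, FDR = 0.00177). SEMA5A beside SNHG18 had 3 and 2 counts with vehicle and none with CPI-455 and was not tested. The difference between a host and its neighbor was not tested. With libraries scaled by their totals alone, 2 of the 8 neighbors were called lower, against 25.9% of all genes under that scaling. With so few neighbors, the absence of calls does not set them apart from the hosts.

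**Figure D4:**
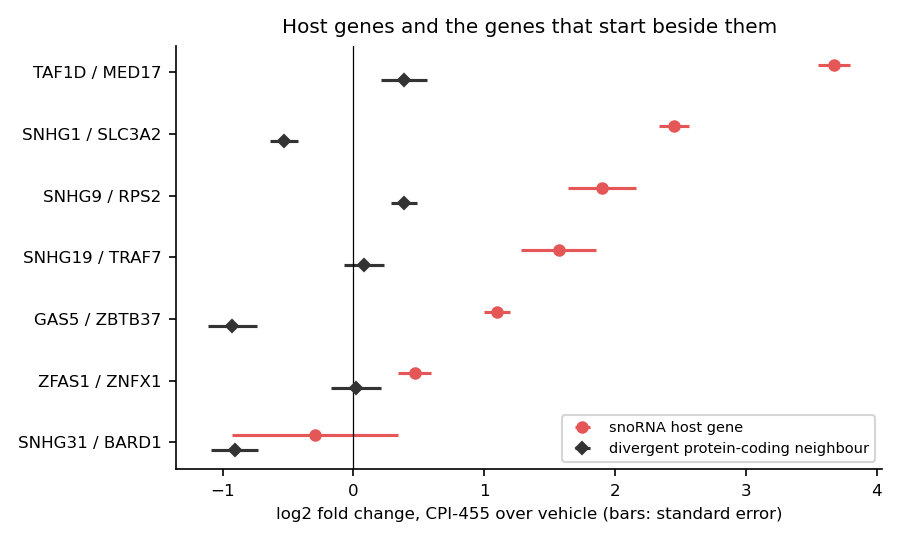
Log2 fold change (CPI-455 over vehicle) with its standard error for 7 tested host genes (circles) and the protein-coding gene that starts beside each on the opposite strand (diamonds). TAF1D and SNHG1 lie at 3.67 and 2.45, and their neighbors MED17 and SLC3A2 at 0.39 and -0.53.

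Host genes outside the family were compared next, to see how far the rise went with carrying a snoRNA. The deposited coordinates give 208 other genes that hold a whole snoRNA gene on their strand, of which 181 were tested. Of these, 45 (24.9%) were called higher and 29 (16.0%) lower, near the 21.0% and 21.3% of all genes tested. Their median log2 fold change was 0.05. The hosts were then counted by kind. Of 28 ribosomal protein hosts, 17 (60.7%) were called higher and none lower (median 1.24), against 15.6% and 24.4% of all protein-coding genes. The paper lists the ribosome among the pathways of genes upregulated with CPI-455. Ribosomal protein genes without a snoRNA were not counted here. Whether this share goes with carrying a snoRNA or with ribosomal protein genes as a class was not tested. Of 16 hosts not typed as protein-coding in the annotation used, 8 were called higher and 1 lower (median 1.09). These held 13 lncRNA genes and pseudogenes, of which 6 (46%) were called higher and none lower. Of all lncRNA genes, 38.5% were called higher and 10.3% lower. The 3 genes without a type gave 2 higher and 1 lower. The 2 higher, ENSG00000281035 and ENSG00000280859, span only 141 and 129 bases in a single block. They had 3 and 0, and 6 and 6 counts under vehicle, against 9 and 11, and 7 and 9 under CPI-455. The lncRNA gene ENSG00000263657, also called higher, had 1 and 0 counts against 22 and 6. These genes passed the filter, which scales with library size, only through their CPI-455 libraries. Their calls are not independent of that. Of 137 other protein-coding hosts, 20 were called higher and 28 lower (median -0.22), against 15.6% higher and 24.4% lower among all protein-coding genes.

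Other hosts were ranked at a mean log2 CPM of at least 5 over all 4 libraries. The largest rise was that of EIF4A1, the helicase of the translation initiation complex, at 4.0 on the log2 scale. EIF2B5, a subunit of the exchange factor eIF2B, came next at 2.69. EIF4A1 had a mean of 9.55 CPM under vehicle against 153 CPM under CPI-455, and EIF2B5 26.5 against 171 CPM. Both reached that limit only through the CPI-455 libraries, where they are high. RABGGTB, a subunit of the enzyme that prenylates Rab proteins, followed at 2.66, and RPL17, a protein of the large ribosomal subunit, at 2.65. EIF4A1 shares exons with a readthrough transcript of SENP3, whose fragments were not counted for either gene. The largest falls were those of EIF4G1, the scaffold of the initiation complex, at -2.07, and GTF2A1, a subunit of TFIIA, at -1.99. DEGS1, a ceramide synthesis enzyme, stood at -1.86 and CHD8, a chromatin remodeler, at -1.58. Of the most abundant hosts, RPS2, RACK1 and EEF2 were not called, with log2 fold changes of 0.39, 0.92 and -0.88.

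The genes for the proteins that form particles with snoRNAs were mostly not called. Of 20 listed genes for box C/D and H/ACA proteins and their assembly factors, 4 (20%) were called higher and 1 (5%) lower, against 21.0% and 21.3% of all genes, and the median log2 fold change was 0.12. NOP58, a core protein of C/D particles, had 121 and 126 CPM under vehicle against 297 and 352 CPM under CPI-455 and a log2 fold change of 1.39. Its partner NOP56 stood at 1.01, the assembly factors NOPCHAP1 and PIH1D1 at 2.09 and 1.32, and NOLC1, a nucleolar chaperone of these particles, at -1.03. FBL, the methyltransferase of C/D particles, and DKC1, the pseudouridine synthase of H/ACA particles, were the most abundant genes of the list that were not called, at -0.11 and 0.24.

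The factors of nonsense-mediated decay, the pathway that degrades many host RNAs, were called about as often as all genes. Of 16 listed genes, 4 (25%) were called higher and 4 (25%) lower, against 21.0% and 21.3% of all genes, and the median log2 fold change was -0.30. SMG9, a regulator of the kinase SMG1, stood at 2.02, and the core factors UPF3B, UPF2 and UPF3A at 1.57, 1.55 and 1.36. SMG8, the partner of SMG9, fell from 91.9 ± 2.34 CPM with vehicle to 9.73 ± 5.63 CPM with CPI-455 (SD, n = 2), a log2 fold change of -3.15 (SE 0.27). SMG6, the endonuclease of the pathway, stood at -1.77. ETF1, a translation termination factor named after its value was seen, was also called lower (-1.20). GSPT1, the partner of ETF1, and SMG5 were the most abundant of those not called, at -0.35 and 0.01.

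The genes that work with TAF1D in transcription of ribosomal DNA were likewise called at shares near those of all genes. Of 19 listed genes of SL1 and RNA polymerase I, 18 were tested, 4 (22.2%) were called higher and 4 (22.2%) lower, against 21.0% and 21.3% of all genes, and the median log2 fold change was -0.32. Among the SL1 subunits, TAF1C was called higher at 1.91, while TBP stood at 0.41, TAF1B at -0.33 and TAF1A at -0.59 without a call. POLR1H and POLR2H, subunits of the polymerase, were called higher at 1.43 and 1.36. POLR1A, its largest subunit, was called lower at -1.55, as were RRN3, which links the polymerase to SL1, at -1.22 and POLR1G at -1.22. The other 2 called, named after their values were seen, were POLR1C (1.11) and POLR1B (-1.13). POLR1D and UBTF, the most abundant of those not called, stood at -0.55 and -0.95.

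**Figure D5:**
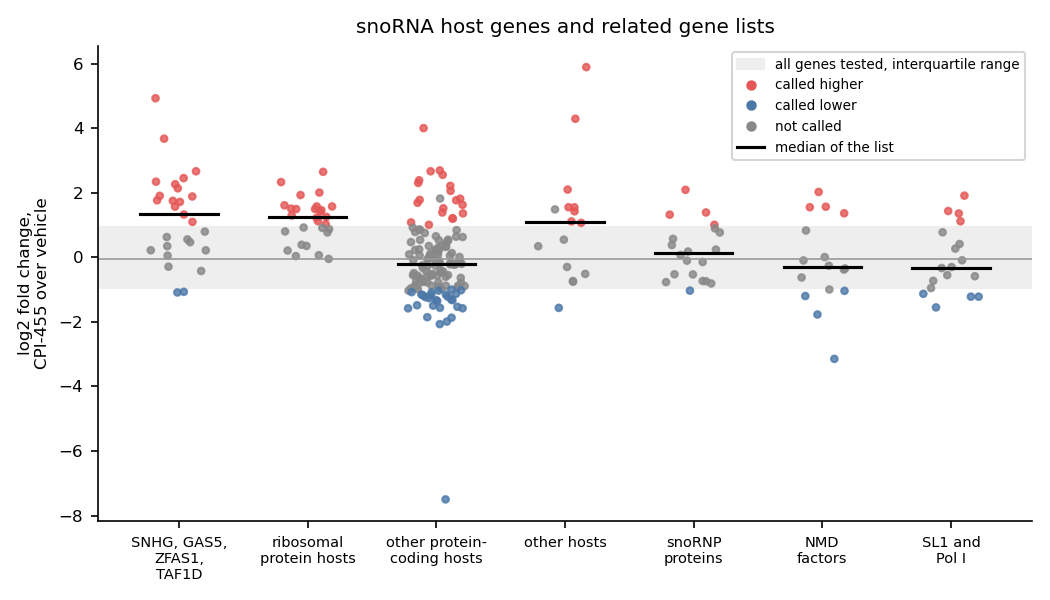
Log2 fold change (CPI-455 over vehicle) of every tested gene of the host family, of the other snoRNA hosts in 3 kinds, and of the snoRNP, NMD and SL1 and RNA polymerase I lists, with a bar at each list's median and gray shading for the interquartile range of all genes, -0.96 to 0.94. The medians of the family (1.33), of the ribosomal protein hosts (1.24) and of the hosts not typed as protein-coding (1.09) lie above the shading, and those of the remaining lists lie within it. The family and the hosts not typed as protein-coding hold genes that passed the filter only through their CPI-455 libraries.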

How the data were processed

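The authors trimmed the reads with Trim Galore, used STAR for alignment to GRCh38 and featureCounts v1.5.0-p1 for counting fragments per gene over the exons of Ensembl release 83. The deposited values are these raw counts, 1 file per library, without normalization. By the file headers, counting ignored strand and dropped fragments that aligned to several places or touched several genes. How RNA was selected and whether libraries were stranded is not given in the sources used here.

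Gene symbols were matched for 56558 genes, and all 31 members lie at the same place in GENCODE release 44. Counts were tested with edgeR 4.0.16 in R 4.3.3 (TMM factors 1.08, 1.06, 0.936 and 0.936, filterByExpr at a minimum of 10 counts, glmQLFit and glmQLFTest without covariates). Genes were called at an FDR below 0.05 and at least 2-fold, as in the study's methods. The code was tested on simulated data. Levels are TMM-normalized CPM for each library, and the 3-count floors cover counting error only. Total counts per library set the precision.

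The members and gene lists were chosen with earlier results of these data known. Every member was named. Of each list the text names up to 6 called genes by size of change and the 2 most abundant uncalled ones, of other hosts the 4 largest changes each way at a mean log2 CPM of at least 5 and the 4 most abundant, every tested neighbor, and the 6 most abundant snoRNAs. Some genes that this rule selects are not reported here. The alternatives were other scalings and filters, DESeq2 1.42.0, the likelihood-ratio test, glmTreat, an FDR below 0.01, a replicate block, removal of a smooth trend over GC content and exon length (mgcv 1.9.3), and each library left out.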

Additional observations from a re-analysis of the deposited data

How the results depend on the processing

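Among the alternative values of single host genes, 424 kept their direction and side of the threshold, 14 were no longer called, 1 was newly called and 16 turned in direction. Between 13 and 15 members were called higher under every alternative run. The number called lower, 2 in the report, was 0 with upper-quartile scaling or glmTreat, 1 with DESeq2 or an FDR below 0.01, and 1 to 3 with a library left out. Of the snoRNP list, 0 genes were lower with upper-quartile scaling or with the length and GC trend removed, 2 with library totals alone, and 0 to 3 with a library left out. With that trend removed, 2 genes of the NMD list and 2 of the SL1 list were lower, and 14 other hosts, of which 19 were lower with upper-quartile scaling. Of 142 other hosts with a snoRNA outside their exons, 26 (18.3%) were called higher and 28 (19.7%) lower, against 45 and 29 of all 181. Of the neighbors, 2 were lower with library totals alone or no filter, and 0 to 2 with a library left out. Over the 17600 genes tested in the report, upper-quartile scaling moved the median by 0.17, library totals by -0.19 and no filter by -0.15, so changes under them are relative to that shift. The cause of these changes was not tested.

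The direction turned for SNHG19 (-0.43 with the length and GC trend removed, -0.42 with the replicate block as well), and, with single libraries left out, for SNHG14 (-1.34 to 0.21), SNHG31 (-1.19 to 0.35), SNHG26 (-0.51 to 0.76), SNHG21 (-2.43 to 0.91) and SNHG30 (-0.043 to 0.090). SNHG21 stood at -0.34 with the trend removed. SNHG30 stood at -0.14 with library totals, -0.10 with no filter and -0.27 with the trend removed.

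Replicate numbers are shared by both groups, but same-numbered libraries deviated together with a correlation of only 0.04 over genes, and no source says that a number marks a shared culture. With the replicate block, 15 members were called higher and 2 lower, as without it, SNHG21 turned to -0.21, and 5 genes of the NMD list were lower. With the block and the trend removed, 13 members were higher and 2 lower, SNHG21 stood at -0.77, SNHG30 at -0.27, and SNHG9 lost its call at 0.37. Where a library was left out, the lone library of its group was assumed to vary like the other group. With 2 libraries a group and 5401588 fragments in the shallowest, members under a few CPM were measured too loosely to order.

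For the snoRNA genes inside the hosts, the alternatives were chosen after seeing the data. Of them, 4 rather than 7 were called higher with the length and GC trend removed, with or without the replicate block, and SNORA71B was then called lower (-2.81). The count was also 4 with at least 10 counts in every library, where only 4 of the 9 could be tested. With single libraries left out, 7 to 8 were higher and 0 to 1 lower. The direction turned for SNORA71C (-0.058 with the trend removed, -0.15 with the block as well) and SNORA60 (-1.49 and -1.87), and SNORA60 ranged from -6.05 to 1.85 with single libraries left out, the lowest fitted against a lone count of 0.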
